A study of Mus musculus with 20 samples.

Results

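The MHC class I genes and their peptide-loading partners were followed across 20 mouse arrays, 10 of thymocytes and 10 of thymic tumours. The 8 genes, out of 19607 that the array platform names, were H2-K1, H2-D1, H2-Q1, H2-Bl, H2-M2, B2m, Tap2 and Tapbp. They were taken by symbol alone: every probe set annotated to exactly 1 gene and carrying one of these symbols was used, which gave 64 probe sets, between 2 for H2-Bl and 13 each for H2-K1 and Tap2. The study asks what loss of Gfi1, a zinc-finger transcriptional repressor of blood cells, does to thymocytes and to T-cell leukaemia.

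MHC class I molecules display peptides from inside the cell to CD8+ T cells and to natural killer cells. H2-K1 and H2-D1 encode the classical heavy chains of the C57BL/6 strain, and B2m encodes the light chain, beta-2 microglobulin, that every such heavy chain needs to reach the surface. Tap2 is one chain of the transporter that brings peptides into the endoplasmic reticulum, and Tapbp (tapasin) holds empty heavy chains next to it. H2-Q1 and H2-M2 are non-classical class I genes, and H2-Bl is listed by RefSeq as a transcribed pseudogene. Immature thymocytes are known to carry less class I than mature ones, and interferons are known to raise the whole pathway.

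All mice were labelled C57BL/6. Gfi1 KO thymocytes (2 arrays untreated and 3 irradiated) were set against WT thymocytes (2 untreated and 3 irradiated); the sources used here do not give the KO allele, the radiation dose or the time after it. Tumours labelled Gfi1 KO came from Mx1Cre+ Gfi1f/f mice and WT tumours from Gfi1f/f mice without the Cre, so that loss of Gfi1 and presence of the Cre cannot be told apart. Every tumour mouse had received the mutagen ENU and, once ultrasound showed a mediastinal mass, pIpC, a double-stranded RNA that switches on the interferon-driven Mx1-Cre; the cells were taken 2 to 3 weeks later. ENU tumours (3 KO, 3 WT) carried no further transgene, and the tumours called Notch here (2 KO, 2 WT) also carried a Notch transgene, named Notch1-CT. Nothing says that the arrays of a group came from separate mice, so p-values measure the spread between these arrays, which may be technical.

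RefSeq promoters (build GRCm38.p6) were found by symbol for 5 of the 8 genes. Those of H2-K1, H2-D1 and B2m are shown because they encode the 2 chains of the classical molecules, and Nfkb1, Irf1 and Nlrc5, whose products are known to act on class I promoters, are among the genes measured beside them. Each run is the 200 bases before the annotated start, 5′ to 3′ in the direction of the gene: chr17:34000348-34000547 on the minus strand, chr17:35262894-35263093 on the plus strand and chr2:122147487-122147686 on the plus strand. Capitals mark matches to the kappa B consensus, to a short (GAANNGAAA) and a long (GAAA, any 2 bases, GAAA) form of the interferon-stimulated element, to CCAAT and to TGACG, on either strand.
H2-K1: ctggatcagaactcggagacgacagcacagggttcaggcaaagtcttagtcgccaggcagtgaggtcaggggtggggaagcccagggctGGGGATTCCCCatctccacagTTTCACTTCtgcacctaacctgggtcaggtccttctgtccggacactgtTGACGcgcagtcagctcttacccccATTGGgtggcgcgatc
H2-D1: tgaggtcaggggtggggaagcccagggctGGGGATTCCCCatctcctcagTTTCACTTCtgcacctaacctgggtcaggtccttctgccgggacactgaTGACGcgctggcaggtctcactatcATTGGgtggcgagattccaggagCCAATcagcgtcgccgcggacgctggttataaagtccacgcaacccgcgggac
B2m: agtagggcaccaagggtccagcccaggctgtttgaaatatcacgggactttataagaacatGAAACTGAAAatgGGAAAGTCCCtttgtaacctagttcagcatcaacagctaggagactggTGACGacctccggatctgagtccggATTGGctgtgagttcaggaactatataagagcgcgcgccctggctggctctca
Where they could be aligned, the H2-K1 and H2-D1 runs were identical at 127 of 140 bases (90.7%). Both held the same pair of overlapping kappa B matches, which lay 111 to 101 bases before the H2-K1 start and 171 to 161 bases before the H2-D1 start, followed by 1 match to the short interferon-stimulated element and 1 to TGACG. B2m held the long element 139 to 130 bases before its start, 1 kappa B match at 126 to 117 bases and 1 TGACG. Of all 32851 promoter windows of this length in the table, 6.07% held the kappa B consensus, 5% the short element, 2.27% the long element, 29.3% CCAAT and 15.7% TGACG. H2-M2 (chr17:37483555-37483754, minus strand) held 2 kappa B matches, of which one overlapped a short element, and Tapbp (chr17:33919278-33919477, plus strand) held none. AATCACNGC, the core of the GFI1 consensus, was in 0 of the 5 windows and in 0.633% of all windows. A match is a run of letters, not a site shown to be bound.

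The values are log2 signals, which run from 3.37 to 15.01 over 182058 probe sets. Array medians lay between 9.08 and 9.27, and arrays of a group correlated at 0.870 to 0.988. A gene's level is the median of its probe sets after each was centred on its own mean, put back on the mean of the probe sets; levels of different genes are not on a common scale. KO Notch tumour 2 stood apart from every other array. Some Notch values are given without it as well. Unless said otherwise, all values and counts that use KO Notch tumours include it and may be moved by it. Its B-cell list, 7 genes on the array with Cr2 dim throughout, averaged 12.69 on the log2 scale, against 7.22 to 9.26 on the other 19 arrays. Its Cd79a, part of the B-cell receptor, was 13.76 and its Cd3d, part of the T-cell receptor complex, 8.44, against 9.55 and 12.05 in KO Notch tumour 1. Its thymocyte identity list averaged 10.36, against 12.01 to 12.40 in the other tumours. Gfi1 itself was read by 8 probe sets, numbered here in order of array ID. In KO against WT untreated thymocytes 3 were lower, probe sets 2, 3 and 4 at -6.31, -2.84 and -2.24 log2, and 3 were higher, by 1.07 to 1.20. In KO against WT irradiated thymocytes 5 were lower, probe sets 4 to 8 at -2.44 to -1.35, and 3 were higher, by 0.98 to 1.37. Probe sets 2 and 3 thus lay below WT in untreated and above WT in irradiated KO thymocytes, probe sets 5 and 7 the other way round, and 1 of the 8, probe set 4, was lower in both, so the KO thymocyte groups are unlike at Gfi1 itself. In KO against WT Notch tumours 1 was lower, probe set 2 at -4.51. In ENU tumours 0 of the 8 differed between KO and WT (limma, smallest adjusted p = 0.391), so these 3 tumours are called KO-labelled throughout.

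**Figure D1:**
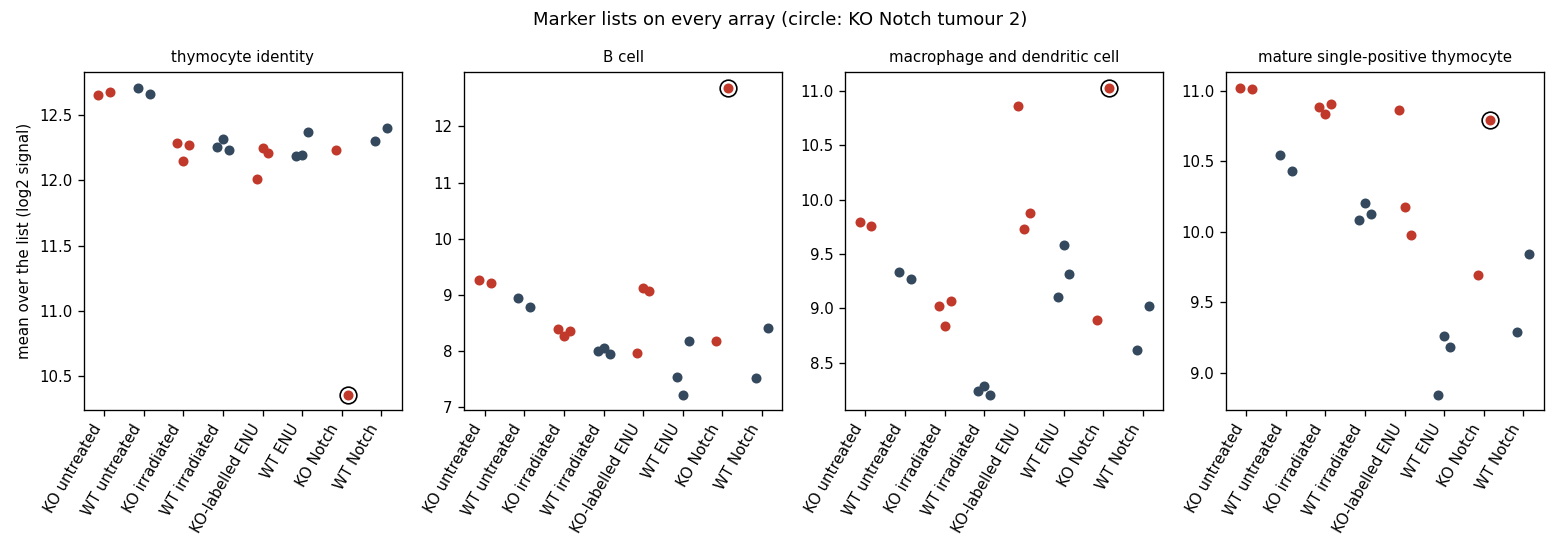
Mean log2 signal over 4 marker lists (y axis) on each of the 20 arrays, by group (x axis), with KO arrays in red and WT arrays in grey-blue. KO Notch tumour 2, circled, is lowest for thymocyte identity at 10.36 and highest for B-cell genes at 12.69.

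H2-K1 and H2-D1 had higher levels on every KO array than on any WT array of the same setting, in all 4 settings. H2-K1 had levels of 11.36 and 11.34 in KO untreated thymocytes, against 11.03 and 10.99 in WT untreated thymocytes. In irradiated thymocytes its levels were 11.34, 11.16 and 11.38 in KO and 10.38, 10.56 and 10.30 in WT. In ENU tumours they were 12.10, 11.47 and 11.83 in the KO-labelled tumours and 9.81, 10.90 and 11.09 in the WT tumours. In Notch tumours they were 11.08 and 12.48 in KO and 10.22 and 10.74 in WT, the higher KO value being that of the array with B-cell genes. Within each setting the KO and WT levels of H2-K1 did not overlap, and the gap was narrowest in untreated thymocytes.

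H2-D1 ran beside it. Its levels were 12.07 and 12.08 in KO untreated thymocytes and 11.88 and 11.80 in WT untreated thymocytes, then 12.07, 11.83 and 12.15 in KO irradiated and 11.29, 11.52 and 11.09 in WT irradiated thymocytes. The tumour levels were 12.86, 12.16 and 12.47 in KO-labelled ENU against 10.89, 11.65 and 11.93 in WT ENU tumours, and 11.95 and 13.18 in KO Notch against 11.38 and 11.82 in WT Notch tumours. Again no WT array of a setting reached a KO array, although in Notch tumours the nearest pair, 11.95 and 11.82, lay close.

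**Figure D2:**
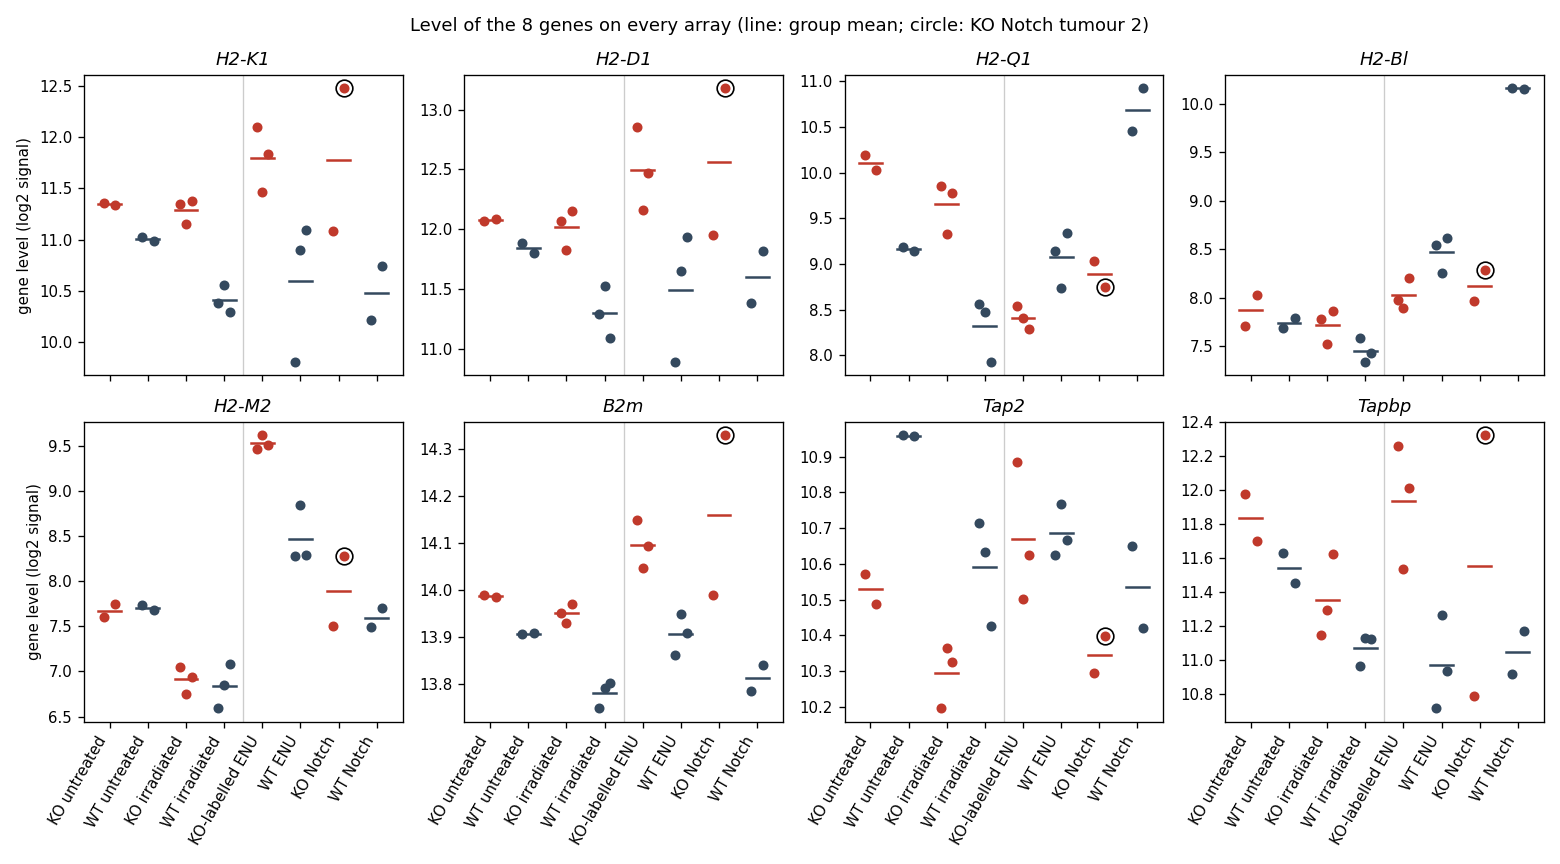
Gene level (y axis, log2 signal) of each of the 8 genes on every array, by group (x axis), with KO in red, WT in grey-blue, lines at group means and KO Notch tumour 2 circled. H2-K1 and H2-D1 lie higher in KO than in WT in each of the 4 settings, while H2-Q1 does so in thymocytes and lies lower in KO than in WT tumours.

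The differences passed the test in irradiated thymocytes alone. There H2-K1 rose by 0.88 ± 0.10 log2 in KO against WT (SE; 1.84-fold; limma over 12747 genes, Benjamini-Hochberg adjusted p = 3.71e-06, n = 3 and 3) and H2-D1 by 0.72 ± 0.11 (1.64-fold, adjusted p = 0.000198). In untreated thymocytes the KO minus WT difference was 0.35 ± 0.12 for H2-K1 (limma, adjusted p = 0.065, n = 2 and 2) and 0.23 ± 0.14 for H2-D1 (adjusted p = 0.345), neither past the threshold of 0.05. KO-labelled ENU tumours exceeded WT ENU tumours by 1.20 ± 0.43 for H2-K1 (limma, adjusted p = 0.355, n = 3 and 3) and by 1.01 ± 0.38 for H2-D1 (adjusted p = 0.361). KO Notch tumours exceeded WT Notch tumours by 1.30 ± 0.53 for H2-K1 and 0.97 ± 0.46 for H2-D1 (limma, adjusted p = 0.806 for both, n = 2 and 2). Without KO Notch tumour 2 these differences were 0.60 and 0.35, and without KO Notch tumour 1 they were 1.99 and 1.58. The ENU differences were numerically larger than those in thymocytes, and their standard errors were several times as wide. With all 20 arrays in 1 fit, which shares that wider spread, the irradiated KO calls were lost for H2-K1 (adjusted p = 0.416) and H2-D1 (0.505), and H2-K1 passed in ENU tumours (0.0492).

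The 2 genes were also read by many probe sets each. In irradiated thymocytes 13 of 13 probe sets of H2-K1 had a higher mean in KO than in WT, by 0.19 to 1.38, and so did 7 of 7 of H2-D1, by 0.57 to 0.95. In KO-labelled against WT ENU tumours the counts were again 13 of 13, by 0.60 to 2.62, and 7 of 7, by 0.81 to 1.31. In KO against WT Notch tumours they were 13 of 13, by 0.12 to 2.44, and 7 of 7, by 0.78 to 1.5. In untreated thymocytes 11 of 13 of H2-K1 were higher in KO, with one at -2.12, and 7 of 7 of H2-D1 by 0.23 to 0.52. Probe sets of one gene share their RNA and are not replicates. The heavy-chain genes are near-identical in places, so how far each probe set reads its own gene alone is uncertain for every H2 gene here.

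**Figure D3:**
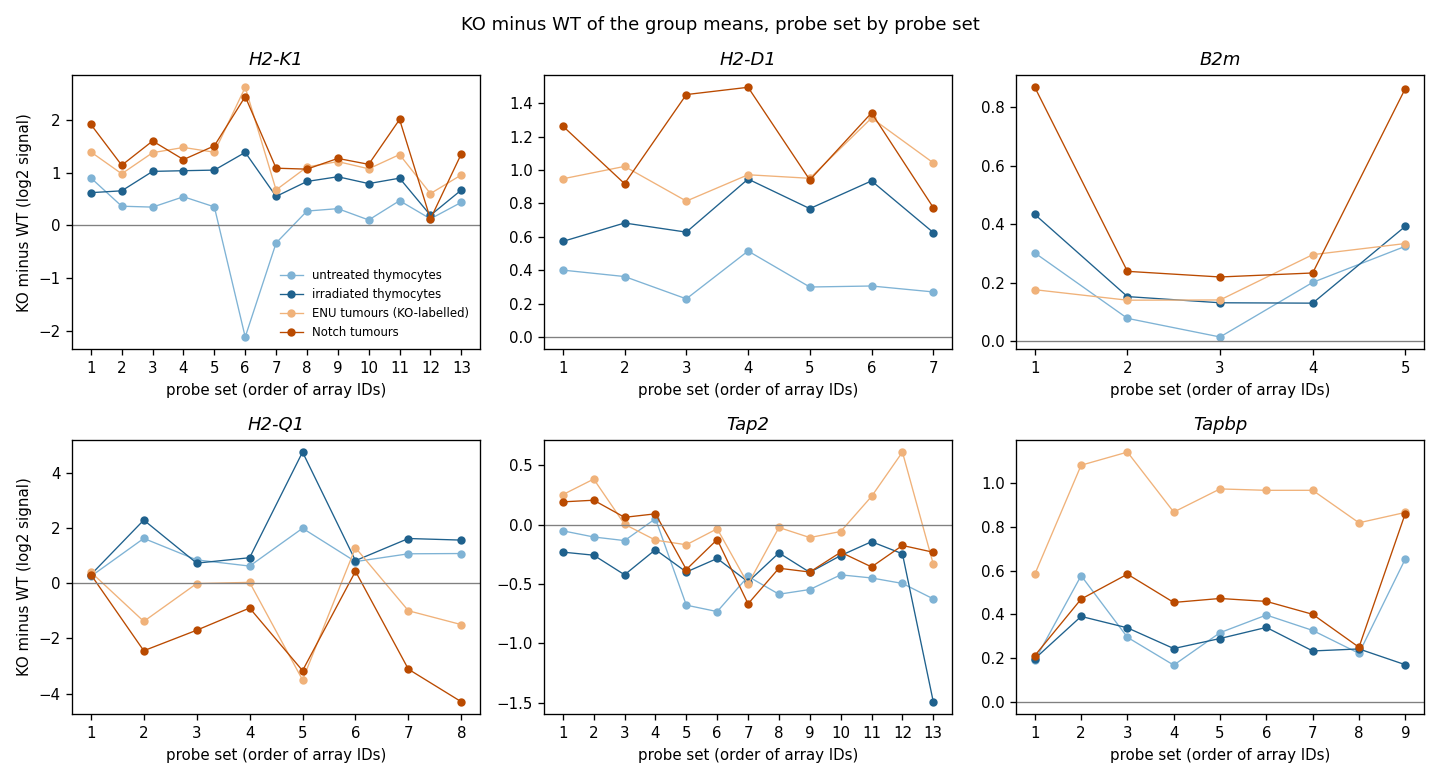
KO minus WT difference of group means (y axis, log2 signal) for each probe set (x axis, in order of array ID) of 6 genes, with one line per setting. All 7 probe sets of H2-D1 lie above 0 in each setting, whereas H2-Q1 is above 0 in thymocytes and mostly below 0 in tumours.

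B2m, the light chain, had levels of 13.99 and 13.99 in KO untreated thymocytes and 13.91 and 13.91 in WT untreated thymocytes. Irradiated thymocytes had 13.95, 13.93 and 13.97 in KO and 13.75, 13.79 and 13.80 in WT. KO-labelled ENU tumours had 14.15, 14.05 and 14.09 and WT ENU tumours 13.86, 13.95 and 13.91, while KO Notch tumours had 13.99 and 14.33 and WT Notch tumours 13.78 and 13.84. KO arrays were thus above WT arrays of the same setting each time, but the differences were small: 0.08 ± 0.10, 0.17 ± 0.08, 0.19 ± 0.13 and 0.35 ± 0.15 log2 in the order given, and the last was 0.18 without KO Notch tumour 2. None passed the test (limma, adjusted p = 0.727, 0.203, 0.441 and 0.806). B2m lay between the 99.9th and the 100th percentile of genes on each array, close to the top of the measured range, and what that does to its differences was not tested.

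Of the loading factors, Tap2 was lower in KO than in WT thymocytes. Its levels were 10.57 and 10.49 in KO against 10.96 and 10.96 in WT untreated thymocytes, and 10.20, 10.37 and 10.33 in KO against 10.71, 10.63 and 10.43 in WT irradiated thymocytes. Tap2 fell in untreated KO (-0.43 ± 0.12 log2, limma, adjusted p = 0.0213, n = 2 and 2) and narrowly in irradiated KO (-0.29 ± 0.10, adjusted p = 0.0465, n = 3 and 3). The untreated call was lost when any 1 of the 4 arrays was left out (adjusted p 0.0971 to 0.192), and the irradiated one when KO 1, KO 3, WT 1 or WT 2 was left out (0.0925 to 0.173). Both were lost with all 20 arrays in 1 fit (0.289 untreated and 0.443 irradiated). In tumours Tap2 differed by -0.02 ± 0.14 between KO-labelled and WT ENU tumours and by -0.19 ± 0.17 between KO and WT Notch tumours (limma, adjusted p = 0.954 and 0.879). Tapbp lay above WT in thymocytes, at 11.98 and 11.70 in KO against 11.63 and 11.45 in WT untreated and at 11.14, 11.29 and 11.62 in KO against 10.96, 11.13 and 11.12 in WT irradiated thymocytes. These Tapbp differences, 0.30 ± 0.15 and 0.28 ± 0.12, did not pass (limma, adjusted p = 0.232 and 0.138). In KO-labelled ENU tumours Tapbp was 12.26, 11.54 and 12.01, against 10.71, 11.26 and 10.93 in WT ENU tumours, a difference of 0.97 ± 0.37 that did not pass either (adjusted p = 0.363). In Notch tumours Tapbp was 10.79 and 12.32 in KO and 10.92 and 11.17 in WT; the difference of 0.51 ± 0.46 turned to -0.26 without KO Notch tumour 2.

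H2-Q1 changed in both thymocyte comparisons, and in the opposite direction from its tumour values. Its levels were 10.19 and 10.02 in KO against 9.18 and 9.14 in WT untreated thymocytes, and 9.85, 9.33 and 9.78 in KO against 8.56, 8.48 and 7.93 in WT irradiated thymocytes. H2-Q1 rose 1.93-fold in untreated KO (0.95 ± 0.19 log2, limma, adjusted p = 0.00204, n = 2 and 2) and 2.51-fold in irradiated KO (1.33 ± 0.15, adjusted p = 6.9e-06, n = 3 and 3). All 8 of its probe sets were higher in KO in both. In tumours the order turned over: 8.54, 8.41 and 8.29 in KO-labelled ENU against 9.14, 8.74 and 9.34 in WT ENU tumours, and 9.04 and 8.75 in KO Notch against 10.45 and 10.92 in WT Notch tumours. The groups did not overlap in either, but neither difference passed (-0.66 ± 0.20, limma, adjusted p = 0.347, and -1.79 ± 0.24, adjusted p = 0.0696). Its probe sets were split here. In KO-labelled against WT ENU tumours 5 of 8 were lower and 3 higher, between -3.50 and 1.29. In KO against WT Notch tumours 6 of 8 were lower and 2 higher, between -4.29 and 0.43. Without KO Notch tumour 2 the Notch value was -1.65 (adjusted p = 0.294), and with all 20 arrays in 1 fit the Notch difference passed (0.00162) and the untreated KO call was lost (0.113).

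H2-Bl fell in KO Notch tumours, and its level stood highest in WT Notch tumours. It had levels of 7.97 and 8.28 in KO Notch tumours against 10.16 and 10.16 in WT Notch tumours, a difference of -2.04 ± 0.19 log2, 4.10-fold lower (limma over 13025 genes, adjusted p = 0.0215, n = 2 and 2). Without KO Notch tumour 2 the value was -2.19 (adjusted p = 0.0305) and without KO Notch tumour 1 it was -1.88 (adjusted p = 0.00329), but the call was lost without WT Notch tumour 1 or 2 (adjusted p = 0.402 and 0.263). Only 2 probe sets read H2-Bl, one at -3.55 and one at -0.52 between KO and WT Notch tumours, and for the second the arrays overlapped. In ENU tumours its levels were 7.97, 7.90 and 8.20 in the KO-labelled and 8.55, 8.25 and 8.62 in the WT tumours (-0.45 ± 0.16, limma, adjusted p = 0.352). In thymocytes H2-Bl lay between 7.34 and 8.03 and, like H2-M2 between 6.59 and 7.75, was too dim to be tested: the filter asks for a level above the 40th percentile on at least 2 arrays of the fit.

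H2-M2 had levels of 9.47, 9.62 and 9.52 in KO-labelled ENU tumours and 8.29, 8.85 and 8.29 in WT ENU tumours. These were the highest levels of the gene in the series, and the KO-labelled arrays lay above the WT ones without overlap; the difference of 1.06 ± 0.23 did not pass (limma, adjusted p = 0.284, n = 3 and 3), but passed with all 20 arrays in 1 fit (0.00911). KO Notch tumours had 7.50 and 8.28 and WT Notch tumours 7.49 and 7.70, a difference of 0.29 ± 0.28 (adjusted p = 0.888) that was -0.10 without KO Notch tumour 2.

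**Figure D4:**
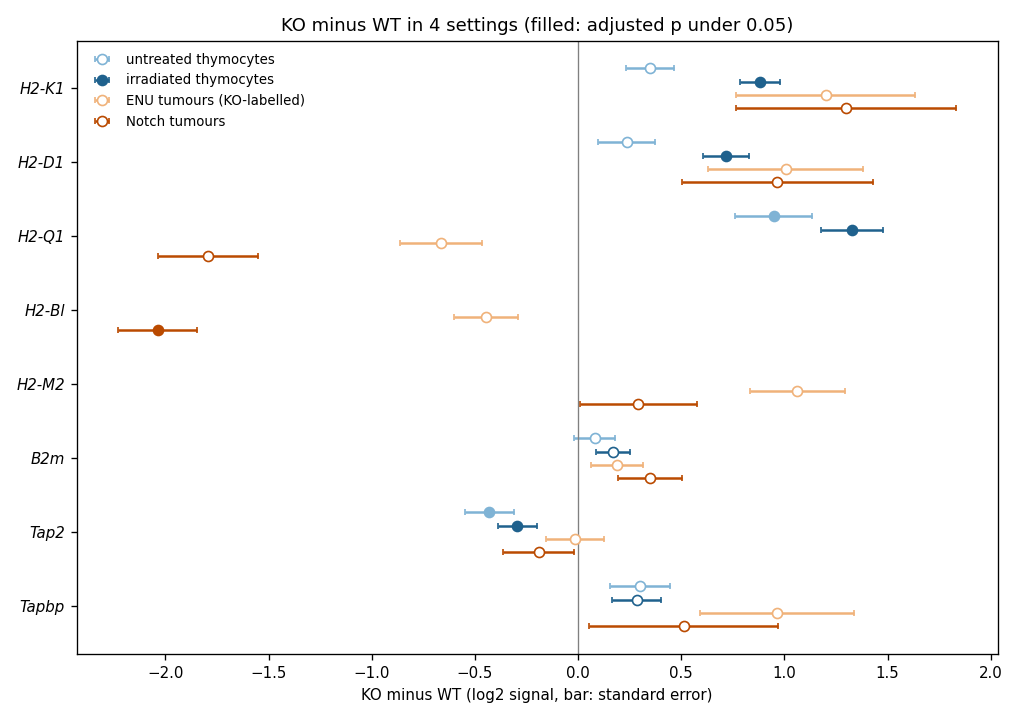
KO minus WT (x axis, log2 signal, bars are standard errors) for each gene (rows) in 4 settings (colours), filled where the adjusted p is under 0.05. H2-Q1 is at 0.95 and 1.33 in thymocytes and at -0.66 and -1.79 in tumours, and H2-Bl is at -2.04 in Notch tumours.

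Counted together, 1 gene was higher and 1 lower of the 6 tested in KO against WT untreated thymocytes, where 12.3% of all genes passed the test, 6.79% higher and 5.49% lower. In KO against WT irradiated thymocytes 3 were higher and 1 lower of 6, where 14.9% of all genes passed, 8.12% higher and 6.81% lower. In KO-labelled against WT ENU tumours 0 of 8 passed, where 0% of all genes did; at an unadjusted p under 0.05 limma gave 6 of the 8, beside 13.7% of all genes, namely H2-K1, H2-D1, H2-Bl, H2-Q1, H2-M2 and Tapbp. In KO against WT Notch tumours 1 of 8 was lower, where 0.0154% of all genes passed, all of them lower. Arrays lay without overlap above WT for 5 of the 6 tested genes and below it for 1, Tap2, in both thymocyte settings. The same held above and below WT for 28.6% and 33.3% of all genes in untreated and for 11.8% and 13.4% in irradiated thymocytes. In ENU tumours 5 genes lay above and 2 below, beside 10.4% and 19% of all genes, and in Notch tumours 3 lay above and 3 below, beside 11.7% and 17.4%. The members' median difference was 0.27 in untreated and 0.50 in irradiated KO thymocytes, and 0.58 in KO-labelled ENU and 0.32 in KO Notch tumours, against medians of -0.02, -0.03, -0.07 and -0.05 over all genes tested. The members' Notch median was -0.17 without KO Notch tumour 2.

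The mean KO effect over both tumour types was also set against the mean KO effect over both thymocyte settings, on all 20 arrays. The tumour mean includes the KO-labelled ENU tumours, where 0 of 8 Gfi1 probe sets differed from WT. The thymocyte mean joins 2 KO groups that are unlike at Gfi1. This comparison was chosen after the directions of H2-Q1 and H2-Bl had been seen on these arrays, so for both genes it gives the size of that difference and is no independent evidence of it. H2-Q1 had a KO effect of -1.23 in tumours and 1.14 in thymocytes, a difference of -2.37 ± 0.22 log2 (limma over 13520 genes, adjusted p = 3.86e-05, where 0.584% of all genes passed). Without KO Notch tumour 2 it was -2.29 (adjusted p = 0.000103). H2-Bl had a KO effect of -1.24 in tumours and of 0.20 in thymocytes, where it was too dim to be tested. It entered this fit through the tumour arrays, so its difference of -1.44 ± 0.16 is given without a test. The other 6 genes did not pass. H2-K1 differed by 0.64 ± 0.37 (limma, adjusted p = 0.583), with effects of 1.25 in tumours and 0.61 in thymocytes. That difference was 0.29 without KO Notch tumour 2 and 0.98 without KO Notch tumour 1. The tumours differ from the thymocytes also in ENU and pIpC, and these cannot be told apart from the cell type. Between the tumour types themselves, the KO effect in Notch minus that in ENU tumours was -1.59 ± 0.25 for H2-Bl and -1.13 ± 0.31 for H2-Q1, neither past the test (limma, adjusted p = 0.207 and 0.631, unadjusted p = 0.000153 and 0.0064), where 0% of all genes passed. With all 20 arrays in 1 fit H2-Bl passed (0.00344).

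Irradiation lowered most of the tested members in WT thymocytes. Of the 6 genes tested 5 were lower in irradiated than in untreated WT thymocytes, where 34.6% of all genes passed, 13% higher and 21.7% lower. Arrays of all 6 lay below without overlap, as 33% of all genes did, against 23.9% above. These comparisons share arrays with those of KO against WT above. The difference was -0.59 ± 0.11 log2 for H2-K1 (limma, adjusted p = 0.000454, n = 3 and 2), -0.54 ± 0.13 for H2-D1 (0.0034), -0.84 ± 0.17 for H2-Q1 (0.00124), -0.37 ± 0.11 for Tap2 (0.0138) and -0.47 ± 0.13 for Tapbp (0.0124). The Tap2 call was lost without irradiated WT 3 or either untreated WT array (adjusted p 0.0651 to 0.095), and the Tapbp call without untreated WT 1 (0.148). B2m differed by -0.13 ± 0.09 (adjusted p = 0.29).

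In KO thymocytes, whose untreated and irradiated groups are unlike at Gfi1, the classical heavy chains gave other values. H2-K1 differed by -0.06 ± 0.11 and H2-D1 by -0.06 ± 0.13 between irradiated and untreated KO thymocytes, with overlapping arrays (limma, adjusted p = 0.676 and 0.717, n = 3 and 2). Of the 6 genes 2 were lower, where 38.8% of all genes passed, 15.1% higher and 23.7% lower: Tapbp at -0.48 ± 0.13 (adjusted p = 0.00897) and H2-Q1 at -0.46 ± 0.17 (adjusted p = 0.0422). The H2-Q1 call was lost without irradiated KO 2 or either untreated KO array (0.0793 to 0.241), and the Tapbp call without untreated KO 1 (0.158). Arrays of 4 of the 6 lay below without overlap, as 36.1% of all genes did, against 30.1% above. With all 20 arrays in 1 fit the calls for H2-K1, H2-D1, Tap2 and Tapbp in WT (adjusted p 0.121 to 0.45) and for H2-Q1 and Tapbp in KO thymocytes (0.234 and 0.398) were lost. The difference between the genotypes in the irradiation response, which rests on the same unlike KO groups, was itself tested, and 0 of the 6 genes passed (limma; 1.88% of all genes did, 1.1% higher and 0.784% lower). H2-K1 stood at 0.53 ± 0.15 (KO response minus WT response, adjusted p = 0.0923) and H2-D1 at 0.48 ± 0.18 (adjusted p = 0.226), with an unadjusted p of 0.00261 and 0.0153. H2-K1 passed when the mean rather than the median of its probe sets was used (0.68, adjusted p = 0.0243), and without irradiated WT 2 (0.61, 0.041) or irradiated KO 2 (0.60, 0.0372).

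WT tumours were also set against WT untreated thymocytes. H2-Bl and H2-M2 were above the 40th percentile on 0 of 2 WT untreated arrays and entered this fit through tumour arrays. The filter thus favours a higher level in tumours, and their values are given without a test. H2-Bl differed by 0.73 ± 0.16 log2 in WT ENU and by 2.42 ± 0.17 in WT Notch tumours, and H2-M2 by 0.77 ± 0.22 and by -0.11 ± 0.24. Of the other 6 genes 0 passed in WT ENU tumours (limma over 13520 genes, n = 3 and 2), where 20.1% of all genes passed, 9.87% higher and 10.2% lower. At an unadjusted p under 0.05 there was 1 of the 6, Tap2 at -0.27 ± 0.13, beside 33.2% of all genes. In WT Notch tumours 1 of the 6 passed, H2-Q1 at 1.53 ± 0.24 (limma, adjusted p = 0.00251, n = 2 and 2), where 7.68% of all genes passed, 2.14% higher and 5.54% lower. Both comparisons share the WT untreated arrays. Without overlap, 2 of the 8 genes, H2-Bl and H2-M2, lay above and 2 below in WT ENU tumours, beside 27.9% and 26.9% of all genes, and 2, H2-Bl and H2-Q1, above and 4 below in WT Notch tumours, beside 32.1% and 35.6%. H2-K1 differed by -0.41 ± 0.37 in WT ENU tumours and by -0.52 ± 0.40 in WT Notch tumours and passed in neither (adjusted p = 0.493 and 0.456). Set against WT ENU tumours directly, WT Notch tumours were higher in H2-Bl by 1.69 ± 0.17 (limma, adjusted p = 0.0358, n = 2 and 3), 1 of 8 genes where 0.023% of all genes passed, 0.0154% higher and 0.00768% lower. Leaving out any 1 of the 5 arrays ended that call (adjusted p 0.082 to 0.384). Without overlap 2 genes lay above and 2 below, beside 13% and 21.8% of all genes. H2-Q1 differed by 1.61 ± 0.22 in the same comparison (limma, adjusted p = 0.11) and passed with all 20 arrays in 1 fit (0.00202). H2-M2 differed by -0.88 ± 0.26. It was above the 40th percentile on 3 of 3 WT ENU and 0 of 2 WT Notch arrays. The filter thus favours a lower level in Notch tumours, and its value is given without a test.

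Ordered over the 8 groups, H2-K1 averaged 11.80 ± 0.32 in KO-labelled ENU tumours (SD, n = 3), 11.78 ± 0.98 in KO Notch tumours (n = 2), 11.35 ± 0.01 in KO untreated (n = 2) and 11.29 ± 0.12 in KO irradiated thymocytes (n = 3). The 4 WT groups followed at 11.01 ± 0.03 untreated (n = 2), 10.60 ± 0.69 ENU (n = 3), 10.48 ± 0.37 Notch (n = 2) and 10.41 ± 0.13 irradiated (n = 3). The 4 KO groups thus came before the 4 WT groups, and the step between them, from KO irradiated to WT untreated, was the single pair of neighbours whose arrays did not overlap. H2-D1 had its 4 KO groups first as well, at 12.56 ± 0.87 in KO Notch tumours, 12.50 ± 0.35 in KO-labelled ENU tumours, 12.08 ± 0.01 in KO untreated and 12.01 ± 0.17 in KO irradiated thymocytes, and WT irradiated thymocytes last at 11.30 ± 0.21. With KO Notch tumour 1 alone, at 11.08 for H2-K1 and 11.95 for H2-D1, that group would come the fourth in both orders. B2m ran between 14.16 ± 0.24 in KO Notch tumours and 13.78 ± 0.03 in WT irradiated thymocytes with the 4 KO groups first, KO Notch tumour 1 alone being at 13.99. Tapbp ran between 11.94 ± 0.37 in KO-labelled ENU tumours and 10.97 ± 0.28 in WT ENU tumours, and Tap2 between 10.96 ± 0.00 in WT untreated and 10.30 ± 0.09 in KO irradiated thymocytes. H2-Q1 had WT Notch tumours first at 10.69 ± 0.33 and WT irradiated thymocytes last at 8.32 ± 0.34. H2-Bl had WT Notch tumours first at 10.16 ± 0.00, with no overlap with the next group, and H2-M2 had KO-labelled ENU tumours first at 9.54 ± 0.08, also without overlap.

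The genes whose centred profile over the 20 arrays was most like the mean of H2-K1, H2-D1 and B2m were H2-Q7 and H2-Q6, further class I heavy chains (Pearson r = 0.943 and 0.925), Nlrc5, the class I transactivator (0.915), Ccl5, a chemokine of activated T cells (0.901), 0610037M15Rik (0.899) and H2-Eb1, a class II chain (0.890). Tapbp correlated with the same profile at 0.846, H2-M2 at 0.479, H2-Q1 at -0.09, Tap2 at -0.11 and H2-Bl at -0.14. Over the 19 arrays without KO Notch tumour 2 the first 6 correlated at 0.847 to 0.922, H2-M2 at 0.505 and H2-Bl at -0.20. These are descriptions over 20 arrays that share groups, genotype and the array with B-cell genes.

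Of the other class I heavy chains 15 of 20 listed were on the array and 11 were tested. Over all genes 8.12% were higher and 6.81% lower in KO irradiated thymocytes, and irradiation lowered 23.7% in KO and 21.7% in WT. In KO irradiated thymocytes 6 of the 11 were higher than in WT and 0 lower: H2-Q6 by 0.93 ± 0.10 log2 (limma, adjusted p = 2.57e-06), H2-Q7 by 0.91 ± 0.11 (1.85e-05), H2-Q2 by 0.87 ± 0.11 (2.52e-05) and H2-T10 by 0.54 ± 0.11 (0.00279), with H2-M3 and H2-T23. Their median of 0.37 compares with -0.03 over all genes. In KO untreated thymocytes 0 of 11 passed (limma; 3 of 11 had an unadjusted p under 0.05, beside 23.4% of all genes, H2-Q2 at 0.37, H2-Q6 at 0.34 and H2-Q7 at 0.30). In tumours 0 of 11 passed in either type (limma; 5 of 11 in ENU and 4 of 11 in Notch tumours had an unadjusted p under 0.05, beside 13.7% and 5.99% of all genes). Here H2-Q6 and H2-Q7 had positive differences (1.60 and 1.33 in KO-labelled against WT ENU, 1.64 and 1.24 in KO against WT Notch tumours), while H2-T10 (-1.01 and -1.30), H2-Q2 (-0.37 and -1.43) and H2-T3 (-0.17 and -1.46) had negative ones. The Notch values were 0.56 for H2-Q6, 0.47 for H2-Q7, -1.68 for H2-T10 and -1.29 for H2-T3 without KO Notch tumour 2, and that of H2-Q2 was negative there too. Irradiation lowered 5 of 11 in KO and 8 of 11 in WT thymocytes, with H2-T24 at -1.59 ± 0.12 in KO and -1.48 ± 0.12 in WT.

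**Figure D5:**
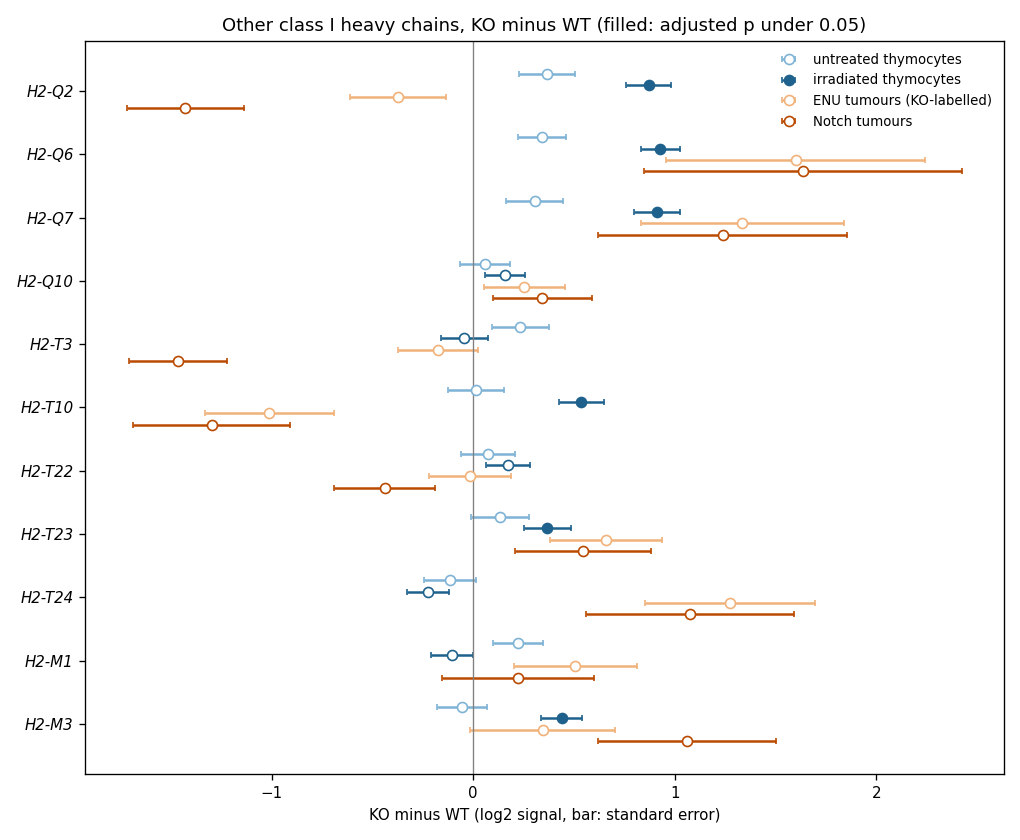
KO minus WT (x axis, log2 signal, bars are standard errors) for the 11 other class I heavy chains tested (rows) in 4 settings (colours), filled where the adjusted p is under 0.05. H2-Q6 and H2-Q7 lie above 0 in each setting, and H2-T10 and H2-Q2 above 0 in irradiated thymocytes and below 0 in tumours.

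Of 4 class I-like genes tested in thymocytes 3 were lower in KO than in WT untreated thymocytes, the lipid-presenting Cd1d2 and Cd1d1 and the metabolite-presenting Mr1: Cd1d2 at -0.89 ± 0.12, Cd1d1 at -0.56 ± 0.15 and Mr1 at -0.43 ± 0.12 (limma, adjusted p = 9.32e-05, 0.0161 and 0.0267), and 1 of 4, Mr1, in KO irradiated thymocytes. Over all genes 6.79% were higher and 5.49% lower in KO untreated, and 8.12% and 6.81% in KO irradiated thymocytes. Of 7 further loading and trimming genes, Erap1, the aminopeptidase that trims peptides, was higher in KO untreated thymocytes (0.45 ± 0.12, adjusted p = 0.0172) and 0 of 7 passed in irradiated ones; Tap1, the partner chain of Tap2, differed by -0.15 and -0.10 there and passed in neither. Of the 5 immunoproteasome genes, Psme2 was higher in KO irradiated thymocytes (0.51 ± 0.12, adjusted p = 0.00502) and 0 passed in untreated ones. Irradiation lowered 5 of 5 of them in WT and in KO, beside 21.7% and 23.7% of all genes, with Psme2 at -1.03 ± 0.13 in KO and -1.13 ± 0.13 in WT. Of the 7 loading and trimming genes 2 passed in irradiated against untreated WT thymocytes, Tapbpl and Erap1, both lower. In KO 5 of the 7 passed, of which Tpp2 was higher and Tapbpl, Calr, Pdia3 and Erap1 lower. Of 7 constitutive proteasome genes 0 passed between KO and WT thymocytes (limma, with 0 at an unadjusted p under 0.05). Irradiation lowered 2 of the 7 in each genotype, Psmb5 and Psma3, close to the shares over all genes. Psmb11, the thymus proteasome gene, was too dim to be tested. In tumours 0 genes of these 4 lists passed between KO and WT (limma). At an unadjusted p under 0.05 there were 0 and 1 of 5 class I-like, 0 and 2 of 7 loading, 0 and 2 of 5 immunoproteasome and 1 and 0 of 7 proteasome genes in ENU and in Notch tumours. The shares over all genes were 13.7% and 5.99%.

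Of 11 known class I transactivators, Nfkb1 was higher in KO in both thymocyte settings, by 0.71 ± 0.11 untreated and 1.13 ± 0.09 irradiated (limma, adjusted p = 0.000164 and 5.32e-08). Irf2 was the second of 2 higher ones in untreated KO (0.44 ± 0.11), and Irf1 (0.71 ± 0.12) and Nlrc5 (0.35 ± 0.09) made 3 in irradiated KO, where Rfx5, part of the RFX complex, was lower (-0.30 ± 0.09). Over all genes 6.79% were higher in untreated KO, and 8.12% higher and 6.81% lower in irradiated KO. Nlrc5 was lower after irradiation in both, at -0.58 ± 0.10 in KO and -0.75 ± 0.10 in WT thymocytes. In tumours 0 of 11 passed between KO and WT (limma). At an unadjusted p under 0.05 there were 1 in ENU and 0 in Notch tumours, beside 13.7% and 5.99% of all genes. Nlrc5 was at 1.43 ± 0.50 in KO-labelled against WT ENU and 1.38 ± 0.61 in KO against WT Notch tumours (limma, adjusted p = 0.352 and 0.806). The Notch value of Nlrc5 was 0.47 without KO Notch tumour 2.

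Of the interferon-response genes 8 of 22 tested were higher and 1 lower in KO untreated thymocytes, and 12 higher and 2 lower in KO irradiated thymocytes. Over all genes the shares were 6.79% and 5.49%, and 8.12% and 6.81%. Ifit3 was higher by 0.87 ± 0.11 and 1.28 ± 0.09, and Oasl2 was lower, at -0.88 ± 0.15 and -1.20 ± 0.12. Irradiation lowered 19 of 22 in WT and 18 of 22 in KO, beside 21.7% and 23.7% of all genes, with Ifit3 at -2.28 ± 0.10 in KO and -2.69 ± 0.10 in WT. In tumours 0 of 23 passed between KO and WT (limma). At an unadjusted p under 0.05 there were 15 of 23 in ENU and 2 of 23 in Notch tumours, beside 13.7% and 5.99% of all genes. The mean level of the whole list was 9.42 to 10.02 in KO-labelled ENU against 8.11 to 8.56 in WT ENU tumours, and 9.21 to 10.21 in KO Notch against 8.60 to 9.22 in WT Notch tumours.

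Markers of other cells and stages moved with the same groups, and their part in the class I values was not tested. Beside the counts that follow, 6.79% of all genes were higher and 5.49% lower in KO untreated, and 8.12% and 6.81% in KO irradiated thymocytes. Thymocyte identity markers gave 0 of 10 higher or lower in KO untreated and 3 of 10 lower in KO irradiated thymocytes, and double-positive markers 3 and 4 of 11 lower. Of 11 mature single-positive thymocyte markers tested, 7 were higher in KO untreated and 10 in KO irradiated thymocytes; the list averaged 11.01 to 11.02 in KO and 10.43 to 10.55 in WT untreated, and 10.84 to 10.90 in KO and 10.09 to 10.20 in WT irradiated thymocytes. Of 11 macrophage and dendritic-cell markers 9 were higher in KO in both settings, with list levels of 9.75 to 9.79 in KO and 9.27 to 9.33 in WT untreated, and 8.84 to 9.06 in KO and 8.21 to 8.29 in WT irradiated thymocytes; Xcr1 was dim in every group. B-cell markers gave 3 of 6 higher in both, with 1 lower in irradiated KO, and NK and cytotoxic markers 5 and 7 of 8 higher, with Ncr1 and Klrb1c dim throughout. Irradiation lowered 11 of 11 macrophage and dendritic-cell markers in KO and 10 of 11 in WT, and 6 and 5 of 6 B-cell markers. Of NK and cytotoxic markers it lowered 6 of 8 in KO and 5 of 8 in WT. In either direction 6 of 10 thymocyte identity, 7 of 11 double-positive and 7 of 11 mature single-positive markers passed in KO. In WT these counts were 5, 6 and 4. Over all genes 38.8% passed in KO and 34.6% in WT. Over all genes irradiation raised 15.1% and lowered 23.7% in KO, and raised 13% and lowered 21.7% in WT. In ENU tumours the mature single-positive list averaged 9.98 to 10.86 in KO-labelled and 8.85 to 9.26 in WT tumours, the macrophage and dendritic-cell list 9.73 to 10.86 and 9.11 to 9.58, and the NK and cytotoxic list 8.28 to 8.71 and 7.56 to 7.95, none of them overlapping. The B-cell list, at 7.97 to 9.13 in KO-labelled and 7.22 to 8.18 in WT ENU tumours, and the double-positive list, at 9.87 to 11.05 and 11.05 to 11.64, overlapped. The thymocyte identity list overlapped in ENU tumours, at 12.01 to 12.25 in KO-labelled and 12.19 to 12.37 in WT. In Notch tumours it did not, at 10.36 to 12.23 in KO and 12.30 to 12.40 in WT. The other 5 lists overlapped between KO and WT Notch tumours. Mature single-positive markers averaged 9.69 to 10.79 in KO and 9.29 to 9.84 in WT Notch tumours, macrophage and dendritic-cell markers 8.89 to 11.03 and 8.62 to 9.02, and NK and cytotoxic markers 7.75 to 8.75 and 8.20 to 8.29. B-cell markers averaged 8.18 to 12.69 in KO and 7.52 to 8.40 in WT Notch tumours, and double-positive markers 8.25 to 10.77 and 9.95 to 11.63. The mean of the thymic epithelium and stroma list lay between 8.46 and 8.79 on every array, with Foxn1 dim, while single genes moved. Of 9 tested, 1, Epcam, was higher in KO in both thymocyte settings (0.74 ± 0.15 untreated and 0.68 ± 0.12 irradiated), and irradiation raised 2 and lowered 2 in KO and raised 1 and lowered 2 in WT thymocytes. In bulk RNA more cells of a type and more RNA per cell cannot be told apart.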

How the data were processed

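Arrays of 20 samples were analysed. The authors deposited 1 value per probe set and array, read here as log2 signal from its range, since the sources used here do not give the log base, background correction or normalization. Per the labels' protocols, RNA was amplified with a NuGEN kit and hybridised as biotin-labelled cRNA. Gene names came from the platform annotation: 167016 probe sets named 1 gene, 3388 several and 11654 none, and those naming 1 gene were used.

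Gene levels, made as the report describes, were tested with limma 3.58.1 (R 4.3.3, lmFit and eBayes, Benjamini-Hochberg, threshold 0.05) over all genes above the 40th percentile of an array on at least 2 arrays of the fit. Thymocyte comparisons used the 10 thymocyte arrays, tumour comparisons the 10 tumour arrays, and tumour against thymocyte all 20. The code was tested on simulated data. Promoters were aligned with Biopython 1.88 and figures drawn with matplotlib 3.10.9.

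The members and lists were chosen with earlier results of these data known. Named were the 8 genes in every comparison, Gfi1, up to 4 genes per list and comparison by smallest p, and the 6 genes most alike. Alternatives were no filter, a 60th percentile filter, quantile normalization, the mean of probe sets, bright probe sets alone, other sets of arrays in the fit, eBayes with trend and robust, a replicate block, and each array left out; the comparison of KO effects between tumours and thymocytes, and values of other genes without KO Notch tumour 2, were added after seeing the data.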

Additional observations from a re-analysis of the deposited data

Results flagged for a closer look

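The KO effect on H2-Q1 differed between tumours and thymocytes over all 20 arrays by -2.37 log2, with -1.23 in tumours and 1.14 in thymocytes (limma, adjusted p = 3.86e-05). The comparison was chosen after these directions had been seen on the same arrays, so it is no independent evidence of them. Its tumour mean includes the KO-labelled ENU tumours, where no Gfi1 probe set differed from WT. Its KO thymocyte groups are unlike at Gfi1. For H2-Bl the same difference was -1.44, with -1.24 in tumours and 0.20 in thymocytes. H2-Bl was too dim to be tested in thymocytes and entered the fit through the tumour arrays, so its value is a description.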

How the results depend on the processing

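Of the members' values under the alternatives, 1182 kept their direction and side of the threshold, 51 lost the call, 17 gained one and 41 changed sign. With all 20 arrays in 1 fit, genes called numbered 115 for KO against WT untreated, 148 irradiated, 679 ENU and 184 Notch. They numbered 772 and 548 for irradiation in KO and WT, 6 for the difference in response, 126 for the KO effect in Notch minus ENU and 270 for Notch against ENU in WT. Members called were then 0, 1, 2 and 2, 0 and 2, 0, 1 and 3 in that order. The last count includes H2-M2, which was dim in WT Notch tumours. The count for irradiation in WT includes H2-Bl or H2-M2. Both were too dim to be tested in thymocytes and entered the fit of all 20 arrays through tumour arrays. The irradiated KO calls of H2-K1 and H2-D1 were lost (limma, adjusted p = 0.416 and 0.505). For irradiation in KO, 1 member was called with quantile normalization, bright probe sets only, trend and robust, or the replicate block. For KO against WT Notch tumours genes called were 6 with quantile normalization and 4 with bright probe sets. Bright probe sets also gave 159 genes for the difference in response and 1 gene for ENU. The mean of probe sets gave 1 member for the difference in response, no low-value filter 1 gene for Notch minus ENU, and the compared groups alone 1900 genes for WT Notch tumours against thymocytes.

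Replicate numbers were not used as pairs in the comparisons as reported. Correlations of same-numbered deviations ran between -0.456 and 0.201. Some passed 0.1, the value set for pairing, among them KO against WT untreated (0.122) and WT ENU tumours against thymocytes (0.113 and 0.178). Whether same-numbered arrays belong together is thus not settled. With the replicate block, KO against WT Notch tumours gave 0 genes and 0 members (H2-Bl -2.04, adjusted p = 0.234), and Notch against ENU in WT 1 gene and 0 members.

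The values whose sign changed were not called in the comparisons as reported. Tap2 in ENU tumours was 0.059 with quantile normalization, 0.011 with the mean of probe sets and 0.021 with bright probe sets. With the mean of probe sets H2-K1 was 0.10 for irradiation in KO, H2-D1 0.16 for Notch minus ENU and B2m 0.017 for WT ENU tumours against thymocytes. With the replicate block H2-K1 was 0.011 for Notch against ENU in WT.

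Leaving out each array in turn gave 716 to 859 genes and 1 member for KO untreated, 1432 to 1972 and 3 to 4 for KO irradiated, 2678 to 4724 and 0 to 2 for irradiation in KO, and 2111 to 5128 and 3 to 5 for irradiation in WT. It gave 61 to 299 and 0 to 1 for the difference in response, 0 to 4 and 0 for ENU, 0 to 1066 and 0 to 2 for Notch, and 0 to 261 and 0 to 1 for Notch minus ENU. It gave 0 to 3 and 0 for Notch against ENU in WT, 726 to 2465 and 0 to 2 for WT ENU tumours, 85 to 872 and 2 for WT Notch tumours, and 41 to 2079 and 2 to 5 for tumours minus thymocytes. Without KO Notch tumour 1 the Notch count was 1066 and without KO Notch tumour 2 it was 5. For WT ENU tumours against thymocytes, every member in these counts was H2-Bl or H2-M2. The member counts for WT Notch tumours against thymocytes and for tumours minus thymocytes include H2-Bl. The latter also includes H2-M2 in some settings. Both genes entered these fits through tumour arrays, so their part in the counts is no test result. Values that changed sign ran, for irradiation in KO, between -0.10 and 0.0089 (H2-K1) and -0.13 and 0.033 (H2-D1). Tapbp ran between -0.15 and 0.12 for the difference in response, and Tap2 between -0.12 and 0.068 for ENU. For Notch, H2-M2 ran between -0.10 and 0.68 and Tapbp between -0.26 and 1.28. For Notch minus ENU, H2-K1 ran between -0.60 and 0.79, H2-D1 between -0.65 and 0.57, B2m between -0.014 and 0.33 and Tapbp between -1.22 and 0.31. For Notch against ENU in WT, H2-K1 ran between -0.51 and 0.14, H2-D1 between -0.19 and 0.33 and Tapbp between -0.055 and 0.22. For WT ENU tumours against thymocytes, H2-Q1 ran between -0.22 and 0.082 and B2m between -0.022 and 0.021. The causes were not tested. A group left with 1 array is assumed to vary like the others. The pathway and marker lists were not recomputed under alternatives, and 2 to 3 arrays a group limit the precision.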

Other observations

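Another 6 probe sets carry a member's name together with other gene names and were not used above. The one named for H2-Q2 and H2-Q1 differed between KO and WT by 0.15 log2 in untreated and 0.99 in irradiated thymocytes, and by -1.08 in ENU and -1.09 in Notch tumours, without overlap each time. The other 5 are named for H2-D1 together with H2-T3, a non-classical gene of the T region. Their KO minus WT differences lay between 0.13 and 1.31 in untreated and between 0.14 and 1.44 in irradiated thymocytes, between -2.21 and -1.12 in ENU tumours and between -5.48 and -2.58 in Notch tumours. In Notch tumours the KO arrays lay below the WT arrays for all 5, whereas the 7 probe sets named for H2-D1 alone lay above. No test was run on these.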
